A study of Chlamydomonas reinhardtii with 16 samples.

Results

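Of 17114 gene models of the green alga *Chlamydomonas reinhardtii*, 5011 averaged 5 FPKM or more over a day of light and dark, and 100 of these were selected for a high level at both ZT 0 and ZT 12. FPKM counts the sequenced fragments of a gene relative to its length and to the mapped reads of the library. ZT, or zeitgeber time, is hours since the last dawn, so that ZT 0 and ZT 12 are the changes from dark to light and from light to dark. The genes were chosen by their measured values. The lower of the means at ZT 0 and ZT 12, plus 1, was divided by the higher of the means at ZT 6 and ZT 18, plus 1, and the 100 genes with the largest ratio were taken. The ratio compares the transitions with midday and midnight alone, and 51 of the 100 genes had a mean above both neighboring time points at ZT 0 as well as at ZT 12. The other 49 had no such double peak, so the genes are called here by their selection, as genes high at ZT 0 and ZT 12, and not as genes with 2 peaks.

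Most rhythmic transcripts of algae and plants pass through a single maximum per day, set by the circadian clock, by light itself and by the cell cycle, which in *C. reinhardtii* is aligned by light and dark so that cells grow in the day and divide around dusk and in the night. A transcript that is high at both changes of light follows another course, and can be thought of as a daily wave with a second, shorter wave on top of it. The cells were of strain dw15.1, kept at 22° in Tris-acetate-phosphate medium, whose acetate lets the alga grow in the dark as well. Small cultures set up from 1 larger culture in constant light were kept for 48 hr in 12 hr of light and 12 hr of dark, and 2 independent cultures, labeled replicates A and B, were harvested at each of 8 time points, every 3 hr between ZT 0 and ZT 21. The cells harvested at ZT 0 were still in the dark and those at ZT 12 still in the light, since both were taken just before the change. Each of the 16 libraries held between 5.87e6 (B at ZT 12) and 2.19e7 (A at ZT 18) fragments and was multiplied by a factor of 0.687 to 1.006 that gives all libraries the same 75th percentile. Fewer transcripts per cell and fewer cells that hold them cannot be told apart in such bulk RNA.

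Genes with this course were few, and for most of them the excess over midday and midnight was small. The ratio of the 100 genes ran from 1.02 to 2.41 with a median of 1.09, against a median of 0.547 over the 5011 genes. A ratio above 1, the point at which both transitions lie above both midday and midnight, was found in 123 genes (2.45%). It exceeded 1.1 in 43 genes, 1.2 in 19, 1.5 in 3 and 2 in 1. Without the addition of 1 the fold between the lower transition and the higher of midday and midnight was 1.02 to 2.54, with a median of 1.1. At the edge of the selection the genes of rank 96 to 100 had ratios of 1.03 to 1.02 and the 5 genes that followed of 1.02 to 1.01, so that the limit falls in a continuous series of values. Within single replicates, each made of 8 cultures, the ratio was above 1 for 81 of the 100 genes in replicate A (2.16% of all genes of that level) and for 86 in replicate B (2.66%). It was above 1 in both for 69 genes. The selection used the means of these values, so these counts are a description only. In 55 genes all 4 values at ZT 0 and ZT 12 lay above all 4 values at ZT 6 and ZT 18. These 55 were 1.1% of the 5011 genes, and since the selection used these very values the count is a description only.

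**Figure D1:**
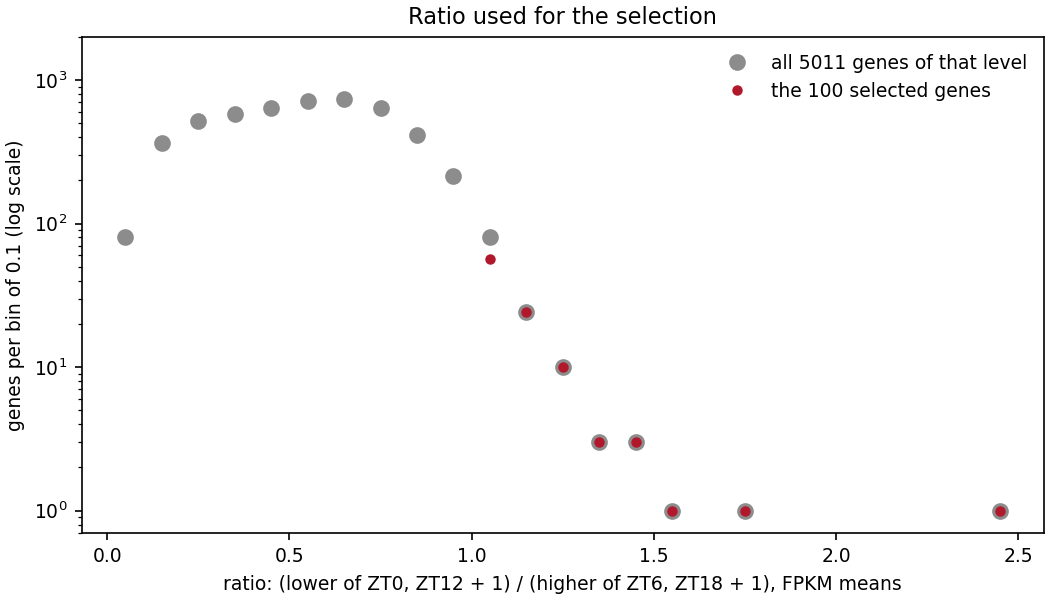
Number of genes per bin of 0.1 of the ratio (log scale) for all 5011 genes of at least 5 FPKM (gray) and for the 100 selected genes (red). The selected genes fill every bin above 1.1, where each bin holds 24 genes or fewer, and 57 of the 80 genes between 1 and 1.1.

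The size of the selection rests on the scaling of the libraries. On the FPKM as deposited, which lack the common 75th percentile, 385 of 6022 genes of the level had a ratio above 1 and 36 of the 100 genes were selected again, while a common median gave 88 of 4736 genes above 1 and 80 selected again. The factor was 0.745 and 0.756 in the cultures at ZT 0 and 0.731 and 0.731 at ZT 12, against 1.006 and 1 at ZT 6 and 0.697 and 0.704 at ZT 18, so that it acts mostly on the comparison with midday.

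The typical gene of the 100 changed little over the day. The highest of its 8 means was 1.96 times the lowest at the median, against 3.09 times over the 5011 genes, and 46 of the 100 genes reached 2-fold (77.15% of the 5011 genes). A selection that bars high levels at ZT 6 and ZT 18 can lower this range, so the gap is a description. Relative to its own mean the median gene stood at 1.177 at ZT 0, 0.86 at ZT 3, 0.883 at ZT 6, 0.994 at ZT 9, 1.164 at ZT 12, 0.957 at ZT 15, 0.906 at ZT 18 and 0.885 at ZT 21. This median changed more between ZT 0 and ZT 3 than on either side of ZT 12. The mean at ZT 0 was above both neighbors in 76 genes (29.57% of the 5011 genes) and that at ZT 12 in 70 (26.92%). Both held in 51 genes (5.35% of the 5011 genes) by the means and in 34 (3.57%) in each replicate taken alone. The highest of the 8 means fell at ZT 0 in 36 genes (9.24% of the 5011 genes) and at ZT 12 in 38 (15.85%). It fell at ZT 3 in 9 (17.16%), at ZT 9 in 11 (16.24%), at ZT 15 in 3 (5.57%) and at ZT 21 in 3 (11.67%). A ratio above 1 bars ZT 6 and ZT 18 from being the highest. In 30 genes ZT 0 and ZT 12 were the 2 highest times of the day, which holds for 32 of the 5011 genes. In 26 genes, on the other hand, a time point between the changes of light lay above both transitions (68.65% of the 5011 genes).

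The selection used the lower of the 2 transition means, which favors genes with like levels at both, so that their comparison is a description. The mean at ZT 12 was 0.999 times that at ZT 0 at the median, with quartiles of 0.85 and 1.21, and was the higher one in 48 genes (50.77% of the 5011 genes). Both cultures at ZT 12 lay above both at ZT 0 in 34 genes (47% of the 5011 genes), and both cultures at ZT 0 above both at ZT 12 in another 34 (45.38%). A difference of at least 2-fold was found in favor of ZT 12 in 4 genes and in favor of ZT 0 in 6. The lowest mean of the day fell at ZT 3 in 37 genes (13.07% of the 5011 genes), at ZT 9 in 25 (14.99%), at ZT 21 in 17 (11.32%), at ZT 15 in 9 (11%), at ZT 6 in 7 (10.1%) and at ZT 18 in 5 (7.68%). A ratio above 1 bars ZT 0 and ZT 12 from being the lowest.

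**Figure D2:**
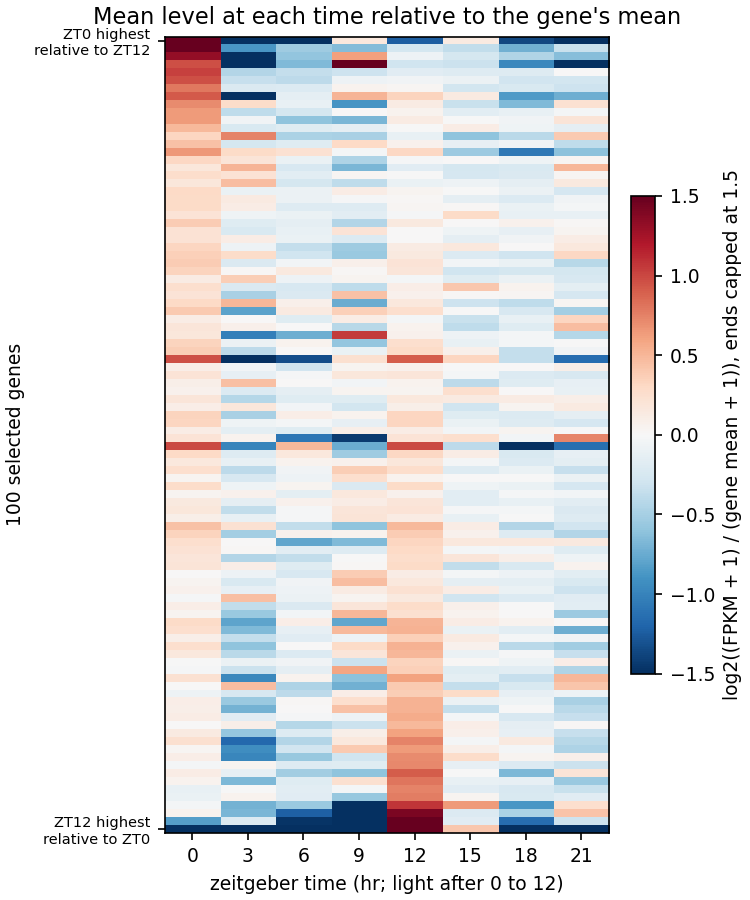
Mean level of the 100 genes (rows) at the 8 time points (columns), as log2 of (FPKM + 1) over the gene's own mean plus 1, ordered from genes whose level at ZT 0 is high relative to ZT 12 (top) to the reverse (bottom). The columns of ZT 0 and ZT 12 are red in most rows. Deep blue lies at ZT 3 in a few rows toward the top and in Cre01.g034822 near the middle, and at ZT 9 in a few near the bottom. The bottom row, Cre18.g748800, is deep blue at ZT 0 as well.

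The gene with the largest ratio, Cre01.g034822, held 2 clear peaks whose values overlapped. It lies on chromosome 1 (4869065 to 4871742 in genome version 4.3) and, like every gene model in the files, carries neither a symbol nor a description. It was at 28.5 and 25.9 FPKM in the cultures at ZT 0 and at 27.3 and 25.1 FPKM at ZT 12, against 4.49 and 5.01 FPKM at ZT 6 and 10.5 and 10.1 FPKM at ZT 18. At 3 hr after dawn it was nearly absent, with 0.439 and 0.480 FPKM at ZT 3, against 5.09 and 5.97 FPKM before dawn at ZT 21. Around dusk it was at 17.4 and 16.8 FPKM at ZT 15, against 15.6 and 16.7 FPKM at ZT 9. The level thus collapsed between ZT 0 and ZT 3 while it declined slowly after ZT 12. The step across dawn was -2.16 ± 0.08 (SE) on the log2(FPKM + 1) scale (limma, adjusted p = 1.76e-11) and that across dusk 0.08 ± 0.08 (adjusted p = 0.405).

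A deep trough at ZT 3 marked a handful of further genes of the set, which otherwise differed in the height of their peaks. At least 10-fold between the highest and lowest means was found in 8 genes (15.35% of the 5011 genes), and 5 of these were lowest at ZT 3. Cre12.g558050 (chromosome 12, 8850701 to 8852091) had 27.9 and 27.0 FPKM at ZT 0 and 10.1 and 9.48 FPKM at ZT 12, against 5.82 and 7.25 FPKM at ZT 6 and 7.06 and 7.67 FPKM at ZT 18. At ZT 3 it was at 0.778 and 0.834 FPKM, and it had a further maximum of 16.1 and 16.8 FPKM at ZT 9, so that ZT 12 was a point on a decline and not a peak. Averaged over both changes of light it was lower after than before them by 1.45 ± 0.07 (SE) on the log2 scale (adjusted p = 7.29e-10). This was one of the 2 smallest adjusted p-values in that direction among the 100 genes, the other being that of Cre01.g034822 (-1.04 ± 0.06, adjusted p = 2.61e-09).

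Cre13.g595350 (chromosome 13, 4647717 to 4649901) showed the same trough with its peak moved into the afternoon. It had 11.5 and 11.1 FPKM at ZT 0 and 3.95 and 4.22 FPKM at ZT 12, against 2.69 and 3.23 FPKM at ZT 6 and 2.24 and 2.19 FPKM at ZT 18, yet 16.6 and 17.0 FPKM at ZT 9. At ZT 3 it was at 0.055 and 0.05 FPKM, values that rest on very few fragments, with 2 in the library with the fewest. Its mean over the time points beside dawn (ZT 21 and ZT 3) was lower than over those beside dusk (ZT 9 and ZT 15) by 2.80 ± 0.07 on the log2 scale (adjusted p = 1.02e-13). The same difference was -2.51 ± 0.06 in Cre01.g034822 (adjusted p = 4.04e-14). Cre01.g029700 (chromosome 1, 4221394 to 4223163), of rank 7, had 14.1 and 13.8 FPKM at ZT 0 and 8.6 and 9.23 FPKM at ZT 12, against 6.20 and 6.20 FPKM at ZT 6 and 3.51 and 3.23 FPKM at ZT 18. It was at 1.01 and 1.07 FPKM at ZT 3, with 3.18 and 4.35 FPKM at ZT 21, a step of -1.21 ± 0.09 (adjusted p = 2.71e-08). The fifth gene, Cre02.g131600, was singled out after its values had been seen. It had 91.8 and 77.5 FPKM at ZT 0 but only 8.58 and 6.56 FPKM at ZT 12, against 6.63 and 5.32 FPKM at ZT 6 and 7.15 and 6.45 FPKM at ZT 18, and 0.946 and 0.456 FPKM at ZT 3. For this gene the peak at the end of the night is the main feature. It was at 18.2 and 24.6 FPKM at ZT 9 and 20.6 and 21.8 FPKM at ZT 15, so that ZT 12 was a dip between them. Its place in the set rests on a small margin at ZT 12.

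**Figure D3:**
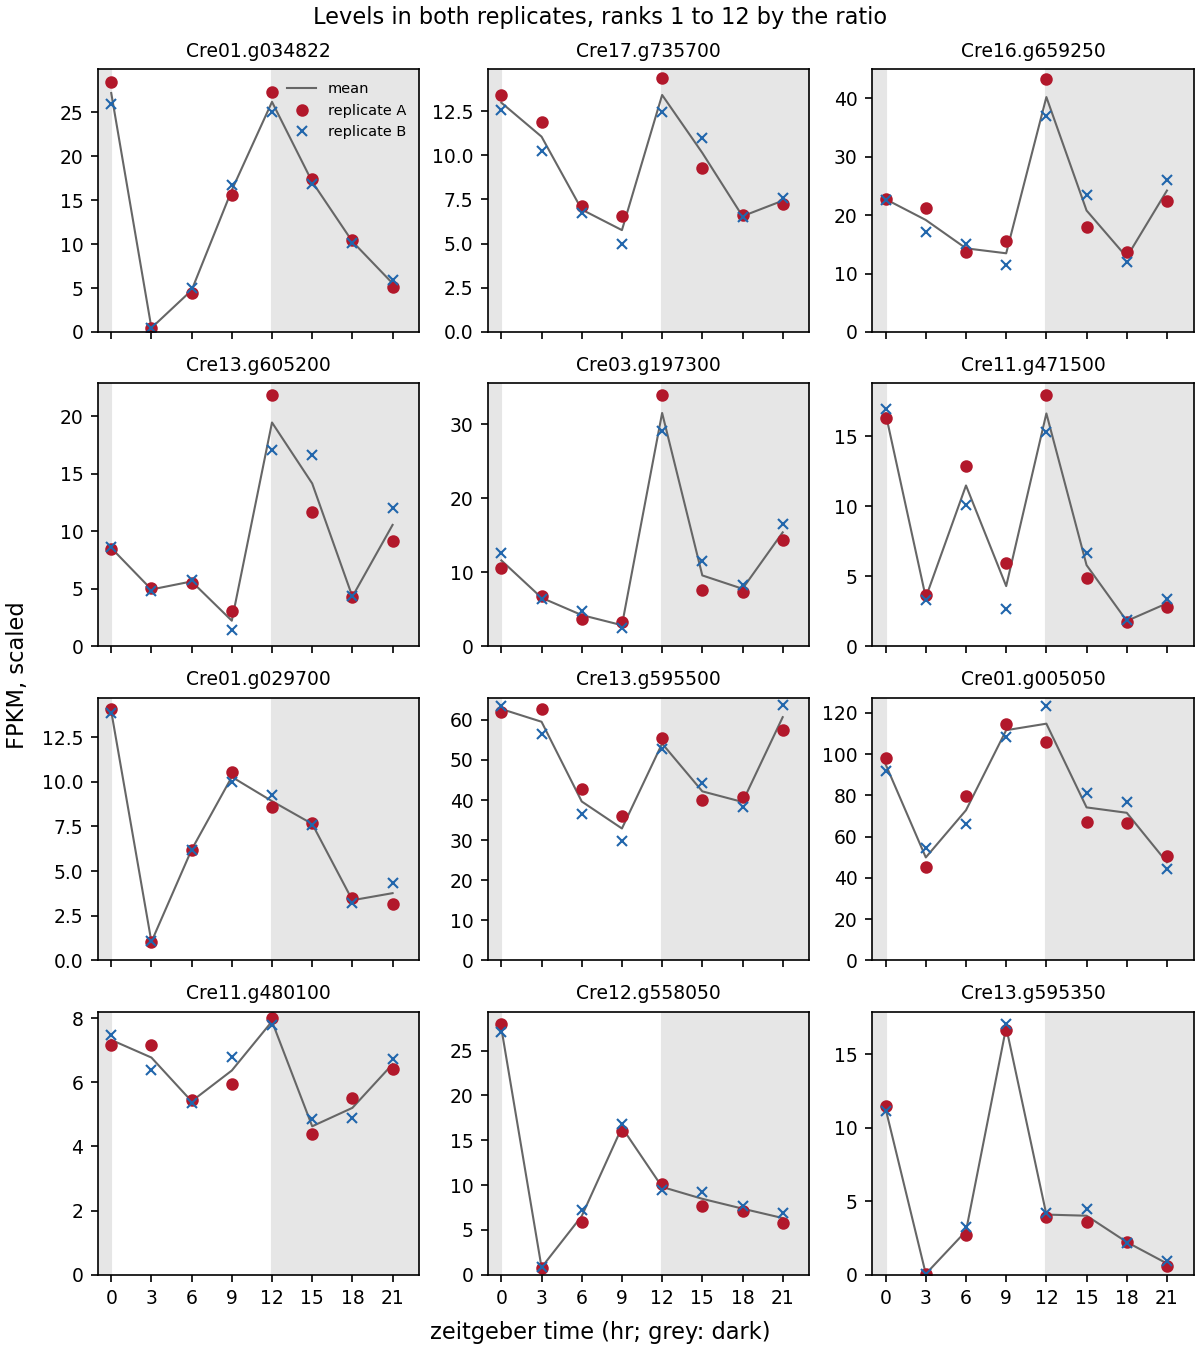
FPKM (scaled) in replicate A (red circles) and replicate B (blue crosses) and their mean (line) at each ZT for the genes of rank 1 to 12 by the ratio, with the dark hours in gray. Cre01.g034822, Cre01.g029700, Cre12.g558050 and Cre13.g595350 share the trough at ZT 3, and Cre13.g605200 and Cre03.g197300 are highest at ZT 12.

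The second group held genes with a tall peak at the end of the day and a lower one in the late night. Cre13.g605200 (chromosome 13, 6182754 to 6188609) had 8.46 and 8.61 FPKM at ZT 0 and 21.8 and 17.1 FPKM at ZT 12, against 5.50 and 5.76 FPKM at ZT 6 and 4.27 and 4.35 FPKM at ZT 18. Its flanking values were 11.7 and 16.6 FPKM at ZT 15 against 3.05 and 1.38 FPKM at ZT 9, and 5.07 and 4.79 FPKM at ZT 3 against 9.11 and 12.0 FPKM at ZT 21. The level was therefore higher after than before the change at dusk and lower after than before the change at dawn. The step across dusk was 2.27 ± 0.20 on the log2 scale (adjusted p = 7.35e-08) and that across dawn -0.95 ± 0.20 (adjusted p = 0.00067).

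Cre03.g197300 (chromosome 3, 5658094 to 5663293) followed the same course with a steeper peak. It had 10.6 and 12.6 FPKM at ZT 0 and 34.0 and 29.1 FPKM at ZT 12, against 3.68 and 4.74 FPKM at ZT 6 and 7.31 and 8.22 FPKM at ZT 18. The late night peak began before ZT 0, since both cultures at ZT 21 were higher still, with 14.3 and 16.5 FPKM. Its mean over the dark flanks (ZT 15 and ZT 21) exceeded that over the light flanks (ZT 3 and ZT 9) by 1.28 ± 0.11 on the log2 scale (adjusted p = 6.28e-08). The difference was 1.17 ± 0.09 in Cre01.g064100 (chromosome 1, 8812512 to 8815700; adjusted p = 6.92e-09), which had 8.94 and 9.85 FPKM at ZT 0 and 8.81 and 9.97 FPKM at ZT 12, against 3.10 and 3.45 FPKM at ZT 6 and 7.66 and 7.92 FPKM at ZT 18. This gene was highest at ZT 21 (11.9 and 16.1 FPKM) and lowest at ZT 9 (2.26 and 2.45 FPKM), so that ZT 0 lay on its decline.

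Cre17.g735700, of rank 2, had overlapping values at both changes of light. It lies on chromosome 17 (5224279 to 5226178) and had 13.4 and 12.6 FPKM at ZT 0 and 14.4 and 12.4 FPKM at ZT 12, against 7.10 and 6.75 FPKM at ZT 6 and 6.59 and 6.51 FPKM at ZT 18. After the changes it was at 11.9 and 10.2 FPKM (ZT 3) and 9.27 and 11.0 FPKM (ZT 15), and before them at 7.26 and 7.59 FPKM (ZT 21) and 6.54 and 4.98 FPKM (ZT 9). All 4 values after the changes lay above all 4 values before them, a difference of 0.62 ± 0.08 on the log2 scale (adjusted p = 1.05e-05). Its transcripts thus stayed high for 3 hr into the new light condition, the reverse of the order in Cre12.g558050.

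Cre11.g480100 (chromosome 11, 2200427 to 2204889) was nearly flat, with 7.17 and 7.47 FPKM at ZT 0 and 8.01 and 7.79 FPKM at ZT 12, against 5.45 and 5.36 FPKM at ZT 6 and 5.52 and 4.89 FPKM at ZT 18. Its step across dusk was -0.39 ± 0.08 (adjusted p = 0.000569). Cre01.g005050 (chromosome 1, 909308 to 914063) was the most strongly expressed of the 10, with 98.1 and 92.0 FPKM at ZT 0 and 106.1 and 123.3 FPKM at ZT 12, against 79.5 and 66.0 FPKM at ZT 6 and 66.5 and 76.6 FPKM at ZT 18. In this gene the day side of dusk was as high as dusk itself, with 115 and 108 FPKM at ZT 9, and the time points beside dawn were lower than those beside dusk by 0.89 ± 0.09 on the log2 scale (adjusted p = 1.83e-07).

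To ask how far the course holds in cultures that the choice did not use, the 100 genes with the largest ratio were taken from the 8 cultures of replicate A alone and read in the 8 of replicate B, and the reverse. Of the genes chosen on replicate A, 70 had a ratio above 1 in replicate B, against 2.66% of all genes of that level, and their median ratio was 1.063 in replicate B after 1.1 in replicate A. Of the genes chosen on replicate B, 61 had a ratio above 1 in replicate A, against 2.16% of all genes, with a median of 1.03 after 1.09. Maxima at both changes of light were seen in the other replicate for 40 and 38 genes, against 6.56% and 4.63% of all genes. Of the genes chosen on A and on B, 78 and 77 were among the 100, whose selection used both replicates. The counts are therefore a description, and the median ratio was smaller in the replicate not used. No test was made of these counts, because the cultures of 1 time point share their light history and starting culture. At ZT 6 the files are named with letters that differ from those of the sample titles. With the letters at ZT 6 exchanged, 56 of the genes chosen on A and 52 of those chosen on B had a ratio above 1 in the other replicate.

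**Figure D4:**
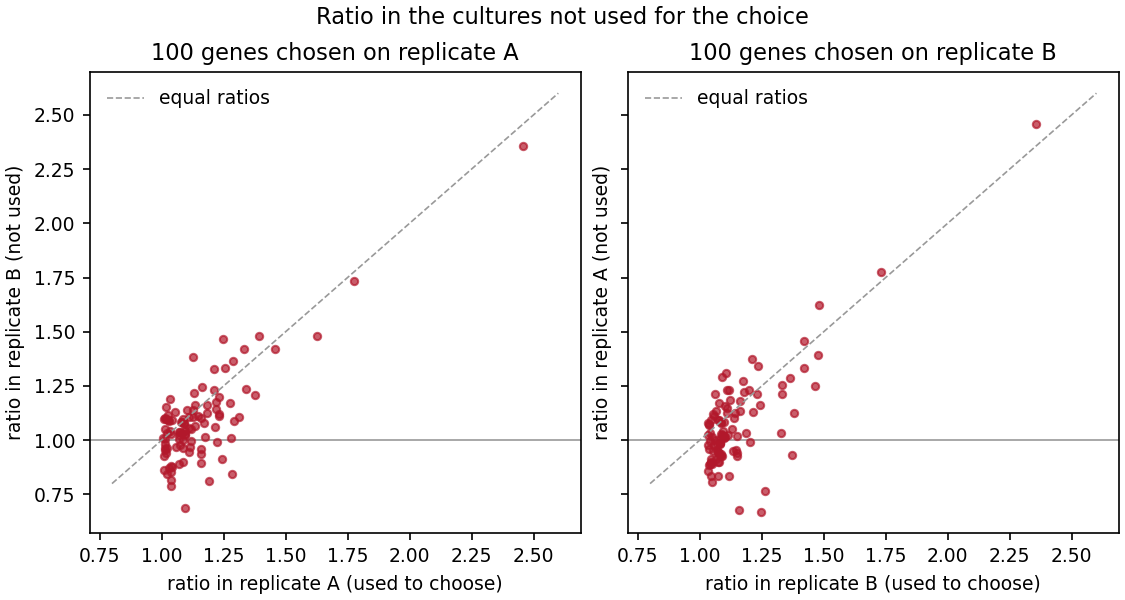
Ratio in the replicate used to choose 100 genes (x axis) and in the replicate not used (y axis), for genes chosen on replicate A (left) and on replicate B (right), with a solid line at a ratio of 1 and a dashed line of equal ratios. In replicate B 70 of the points lie above 1 (left), and in replicate A 61 (right).

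The 4 time points 3 hr before and after the changes of light, ZT 3, 9, 15 and 21, entered the selection only through the mean level and were tested with limma over the 12153 genes that averaged 1 FPKM or more. All 100 genes were among these. The 4 time points lie between those that the selection used, so that differences from all genes can follow from it. The 100 genes average 5 FPKM or more, while the genes tested include lower ones. Any difference among the 4 time points was called in 93 of the 100 genes (adjusted p under 0.05), against 94.5% of all genes tested.

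A difference of the same sign at dawn and dusk was tested as the mean after the changes of light (ZT 3 and ZT 15) minus the mean before them (ZT 21 and ZT 9). It was higher after the changes in 26 of the 100 genes (25.1% of all genes tested) and lower in 30 (31.3%), shares near those of all genes. The median difference was -0.03 on the log2 scale in the 100 genes and -0.03 over all genes. Cre10.g423450 was among those higher after, with 11.0 and 11.6 FPKM at ZT 3 and 5.49 and 6.61 FPKM at ZT 15, against 7.71 and 8.10 FPKM at ZT 21 and 4.38 and 4.03 FPKM at ZT 9, a difference of 0.45 ± 0.06 (adjusted p = 2.88e-05). The deposited FPKM gave 19 higher (21.4% of all genes) and 39 lower (34.3%).

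The dark flanks (ZT 15 and ZT 21) were higher than the light flanks (ZT 3 and ZT 9) in 39 of the 100 genes (34.6% of all genes tested) and lower in 26 (45.3%). The median difference was 0.04 in the 100 genes against -0.09 over all genes, and its size without sign was 0.21 against 0.39. Fitted on genes of at least 5 FPKM, the counts were again 39 (31.7% of these genes) and 26 (51.5%), with a median of -0.167 over these genes. On the deposited FPKM 68 genes were higher in the dark (47.4% of all genes) and 6 lower (28.7%). The median was then 0.28 in the 100 genes against 0.12 over all genes. The direction of small differences between dark and light thus follows the scaling. The median of the 100 genes lay above that of all genes under both scalings. The strongest examples lower in the dark were Cre16.g685000 and Cre10.g438600. Cre16.g685000 was at 3.26 and 3.94 FPKM at ZT 15 and 2.93 and 3.8 FPKM at ZT 21, against 7.48 and 6.85 FPKM at ZT 3 and 5.61 and 5.55 FPKM at ZT 9, a difference of -0.72 ± 0.07 (adjusted p = 2.54e-07). Cre10.g438600 was at 37.1 and 37.4 FPKM at ZT 15 and 45.3 and 45.2 FPKM at ZT 21, against 68.4 and 67.2 FPKM at ZT 3 and 46.7 and 48.6 FPKM at ZT 9 (-0.46 ± 0.05, adjusted p = 3.83e-07).

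The flanks of dawn (ZT 21 and ZT 3) were higher than those of dusk (ZT 9 and ZT 15) in 30 of the 100 genes (36% of all genes tested) and lower in 50 (41.7%). The median difference was -0.14 in the 100 genes and -0.05 over all genes, or -0.006 over all genes of at least 5 FPKM. With FPKM as deposited the counts were 17 higher (28.1% of all genes) and 61 lower (51.8%). This was the largest of the 3 differences in size for 55 of the 100 genes (43.4% of the 5011 genes), the contrast of dark and light for 29 (49.1%) and that of after and before for 16 (7.5%). Among the genes higher beside dawn, Cre02.g127250 was at 53.7 and 55.4 FPKM at ZT 21 and 66.2 and 73.3 FPKM at ZT 3, against 27.1 and 31.2 FPKM at ZT 9 and 25.0 and 28.9 FPKM at ZT 15 (1.11 ± 0.06, adjusted p = 3.44e-10). Cre14.g610100 was at 63.4 and 60.6 FPKM at ZT 21 and 64.4 and 60.0 FPKM at ZT 3, against 26.2 and 27.0 FPKM at ZT 9 and 35.1 and 37.3 FPKM at ZT 15 (0.98 ± 0.06, adjusted p = 3.32e-10). In both genes the flanks of dawn lay above ZT 0 itself, which had 49.7 and 54.1 FPKM in Cre02.g127250 and 47.6 and 50.5 FPKM in Cre14.g610100, with the exception of 1 of the 4 flanking values of Cre02.g127250.

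Taken 1 change of light at a time, the steps of the 100 genes were smaller at the median than those of all genes. The selection holds midday and midnight below both transitions and so disfavors a strong wave of day or night. Differences from all genes in these steps are therefore a description. ZT 3 was higher than ZT 21 in 13 of the 100 genes (35.6% of all genes tested) and lower in 31 (33.7%), and the median size of this step without sign was 0.19 on the log2 scale against 0.38 over all genes. Fitted on genes of at least 5 FPKM, the counts were 15 higher (43.9% of these genes) and 32 lower (30.5%). ZT 15 was higher than ZT 9 in 34 genes (33.1%) and lower in 36 (44.2%), with a median size of 0.33 against 0.50. Without scaling the counts were 4 higher and 65 lower across dawn (19.9% and 49.5% of all genes under that scaling). Across dusk they were 49 higher and 12 lower (40.7% and 33.2%). With a common median they were 20 higher and 28 lower across dawn (39.7% and 30.8%). The median step of all genes moved with the scaling as well, to -0.22 across dawn and 0.06 across dusk without scaling, against 0.02 and -0.11 with it. Both steps were called in the same direction in 13 genes (9.58% of all genes tested), 3 of them higher after each change and 10 lower, and in opposite directions in 16 genes (46.9%), 5 of them higher across dawn and lower across dusk and 11 the reverse. The difference between the 2 steps, which is the contrast of dark and light flanks, was called in 65 genes, against 79.9% of all genes tested.

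**Figure D5:**
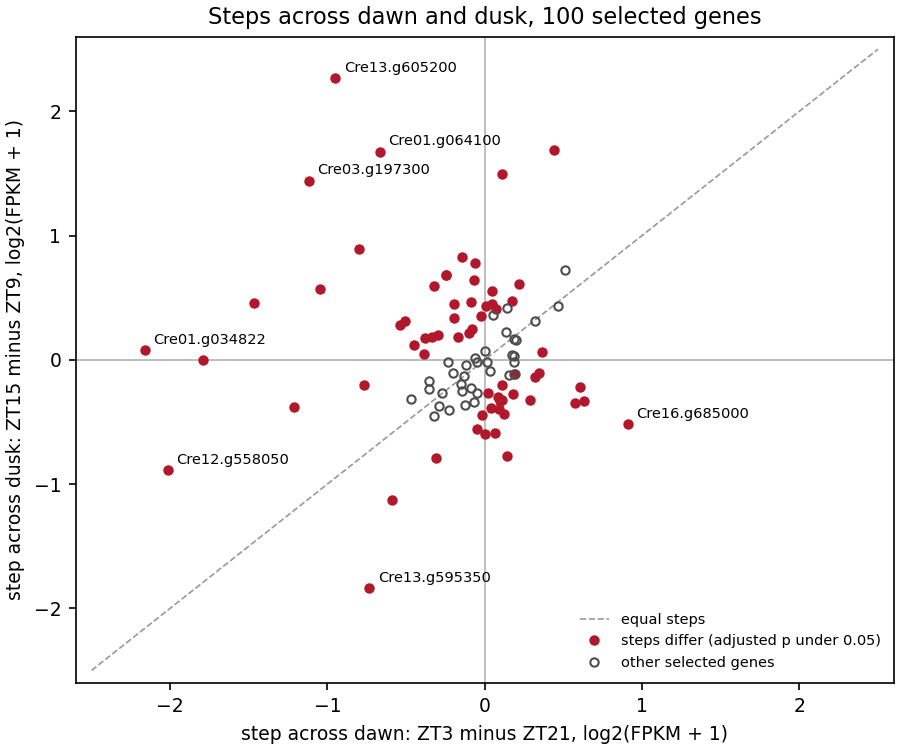
Step across dawn (ZT 3 minus ZT 21, x axis) against step across dusk (ZT 15 minus ZT 9, y axis) on the log2(FPKM + 1) scale for the 100 genes. Filled red points are the 65 genes whose steps differ, and open points the others. Some of the genes far out, such as Cre01.g034822 with -2.16 across dawn and Cre13.g605200 with 2.27 across dusk, are labeled.

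Of the 100 genes, 15 stand in the study's protein domain trees used here, as do 905 of the 5011 genes of at least 5 FPKM (18.1%). Of the 200 trees used only 47 were complete, so that a gene outside them may still have a known domain. The 15 genes spread over families of unlike function, and no family had more than 3. None of the 100 genes was in the 12 function lists of the study used here, which hold 98 genes of that level, or among the 13 genes of that level with an earlier reported rhythm. Since 2% of the 5011 genes were selected, few or none would be met in lists of this size, and nothing is read from these counts.

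Genes with a cytochrome b5-like domain, a heme-binding fold that carries electrons, were represented by 2 of 9. Cre16.g659250 (chromosome 16, 1500029 to 1502385) had the third largest ratio, with 22.8 and 22.7 FPKM at ZT 0 and 43.4 and 37.0 FPKM at ZT 12, against 13.6 and 15.0 FPKM at ZT 6 and 13.6 and 12.0 FPKM at ZT 18. Like Cre13.g605200 it was higher in the dark than in the light flanks, by 0.46 ± 0.10 on the log2 scale (adjusted p = 0.000872). The other one, Cre13.g574800, was close to flat at 7.67 and 6.69 FPKM at ZT 0 and 6.99 and 7.58 FPKM at ZT 12, against 6.21 and 6.19 FPKM at ZT 6 and 6.88 and 6.84 FPKM at ZT 18. A thioredoxin family gene, of a class of proteins that reduce disulfide bonds, was among the 100 as 1 of 31. Cre10.g446100 had 12.1 and 13.5 FPKM at ZT 0 and 24.3 and 23.4 FPKM at ZT 12, against 12.3 and 12.5 FPKM at ZT 6 and 11.5 and 11.8 FPKM at ZT 18, a peak at the end of the day alone, with values at ZT 0 that overlapped those at midday.

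A gene of the family of sugar and other transporters, Cre11.g471500 (chromosome 11, 749332 to 753863), was 1 of 7 and had the sixth largest ratio. It had 16.3 and 17.0 FPKM at ZT 0 and 18.0 and 15.3 FPKM at ZT 12, against 12.9 and 10.1 FPKM at ZT 6 and 1.72 and 1.89 FPKM at ZT 18. This gene had 3 maxima over the day, since ZT 6 stood above both ZT 3 (3.68 and 3.28 FPKM) and ZT 9 (5.92 and 2.66 FPKM). Its lowest point was midnight, and the steps across dawn (0.14 ± 0.21, adjusted p = 0.563) and dusk (0.42 ± 0.21, adjusted p = 0.0861) did not pass the test.

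Protein kinases, which switch other proteins by adding phosphate, were 3 of 141 genes of the family, near the 2% selected over all genes, and the median ratio of the family was 0.648. Cre13.g595500 (chromosome 13, 4660632 to 4664120) had 61.9 and 63.5 FPKM at ZT 0 and 55.5 and 52.7 FPKM at ZT 12, against 42.9 and 36.4 FPKM at ZT 6 and 40.7 and 38.3 FPKM at ZT 18. The flanks of dawn were nearly as high as ZT 0, and exceeded those of dusk by 0.68 ± 0.07 on the log2 scale (adjusted p = 4.12e-07). Cre12.g517600 had 9.13 and 9.76 FPKM at ZT 0 and 6.38 and 7.80 FPKM at ZT 12, against 5.27 and 6.38 FPKM at ZT 6 and 6.25 and 6.64 FPKM at ZT 18, so that ZT 12 overlapped midnight. Cre01.g010000 had 10.3 and 10.2 FPKM at ZT 0 and 10.0 and 11.7 FPKM at ZT 12, against 6.45 and 6.91 FPKM at ZT 6 and 9.31 and 9.76 FPKM at ZT 18. Midnight was thus close to the transitions in the third kinase, whose ZT 3 was lower than its ZT 21 by 0.38 ± 0.08 (adjusted p = 0.000564). A small GTPase, a molecular switch of transport and signaling, Cre17.g708250, had 6.61 and 6.56 FPKM at ZT 0 and 6.71 and 6.15 FPKM at ZT 12, against 4.94 and 6.07 FPKM at ZT 6 and 4.51 and 4.85 FPKM at ZT 18.

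The only cyclin among the 100 by the trees used, 1 of 10 cyclins of that level in them, had its main peak before dusk. Cyclins bind and activate the kinases that drive the cell cycle. Cre10.g466200 had 14.2 and 12.1 FPKM at ZT 0 and 11.1 and 13.2 FPKM at ZT 12, against 7.69 and 5.51 FPKM at ZT 6 and 9.92 and 12.9 FPKM at ZT 18, with overlap between ZT 12 and ZT 18. At ZT 9 it was at 24.3 and 26.0 FPKM, the highest of the day, against which ZT 15 was lower by 1.13 ± 0.15 (adjusted p = 7.6e-06). In this gene, too, the ratio above 1 does not stand for a peak at ZT 12.

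Genes for RNA binding, protein turnover and chromatin completed the annotated members. Of 62 genes with an RNA recognition motif 2 were among the 100. Cre06.g288750 had 18.6 and 18.6 FPKM at ZT 0 and 19.1 and 18.9 FPKM at ZT 12, against 15.8 and 16.6 FPKM at ZT 6 and 16.4 and 15.7 FPKM at ZT 18, and thus cleanly separate but small differences. Cre13.g588050 had 15.2 and 16.3 FPKM at ZT 0 and 15.5 and 17.5 FPKM at ZT 12, against 6.37 and 8.04 FPKM at ZT 6 and 14.5 and 14.8 FPKM at ZT 18, which is a dip in the day and not a pair of peaks. Its dark flanks were higher than its light flanks by 0.48 ± 0.06 (adjusted p = 5.02e-06). A gene with a ubiquitin-like domain, Cre17.g726050, had 12.2 and 11.3 FPKM at ZT 0 and 15.1 and 15.2 FPKM at ZT 12, against 9.26 and 8.55 FPKM at ZT 6 and 10.4 and 10.2 FPKM at ZT 18. Cre12.g508150 carries an SNF2 ATPase domain, found in proteins that move nucleosomes along DNA, and had 15.9 and 14.9 FPKM at ZT 0 and 15.2 and 16 FPKM at ZT 12, against 15.6 and 12.7 FPKM at ZT 6 and 14.7 and 15.2 FPKM at ZT 18. The groups overlapped in this gene, and its values at ZT 9 (17.9 and 18.0 FPKM) lay above both transitions. Cre01.g061950, with ankyrin repeats that join proteins to one another, had 5.98 and 5.6 FPKM at ZT 0 and 5.92 and 5.91 FPKM at ZT 12, against 5.4 and 5.39 FPKM at ZT 6 and 4.62 and 4.67 FPKM at ZT 18.

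One annotated member showed how far the selection can lie from 2 peaks. Cre18.g748800, on scaffold 18 (857968 to 859767), has a C2 domain, a fold that binds membranes. It had 1.31 and 0.792 FPKM at ZT 0 and 39.4 and 29.2 FPKM at ZT 12, against 0.795 and 1.12 FPKM at ZT 6 and 0.692 and 0.753 FPKM at ZT 18. The gene was expressed mainly around dusk, with 3.56 and 13 FPKM at ZT 15, and its values at ZT 0 overlapped those at ZT 6. Its ratio was 1.29 in replicate A and 0.846 in replicate B.

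Of the clusters of genes that the study formed by expression in these same libraries, 28 were used here and the others were not. Cre12.g513200 was 1 of 12 genes in its cluster, and Cre10.g438600 and Cre14.g610100 were 2 of 9 in theirs. No other selected gene was in the 28 clusters, which hold 160 genes of the level used for the selection. Of all genes of that level 2% were selected, and nothing is read from these counts. Because those clusters were formed on the same values, their overlap with the selection is not independent evidence.

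On the genome the 100 genes were scattered. Of the 100, 99 lie on the 17 numbered chromosomes, with 14 each on chromosomes 1 and 12, which carry 477 and 588 of the 5011 genes. No 2 of them were direct neighbors. With 1 other gene between them stood Cre02.g112900 and Cre02.g113000 (2355 bases apart), Cre01.g004950 and Cre01.g005050 (2850 bases) and Cre05.g243550 and Cre05.g243650 (22498 bases), pairs that were picked out after their values had been seen. Cre05.g243550 had 44.3 and 44.1 FPKM at ZT 0 and 28.3 and 29.9 FPKM at ZT 12, against 24.9 and 21.7 FPKM at ZT 6 and 25.7 and 26.2 FPKM at ZT 18. Cre05.g243650 had 28.7 and 26.6 FPKM at ZT 0 and 11.1 and 12.0 FPKM at ZT 12, against 8.90 and 11.1 FPKM at ZT 6 and 12.0 and 10.7 FPKM at ZT 18. Both were highest at ZT 0 by a wide margin, and their 8 means on the log2 scale had a correlation of 0.94 over time points that share the same 16 libraries. For the pairs on chromosomes 2 and 1 the correlation was 0.55 and 0.56. It was -0.44 for Cre13.g595350 and Cre13.g595500, which lie 10730 bases apart with 2 genes between them. Whether near genes share a course was not tested.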

How the data were processed

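RNA from 16 cultures was sequenced with a stranded kit, replicates A and B of each time point in different lanes. Reads were aligned by the authors to genome version 4.3 (TopHat, 1 hit allowed per read), and Cufflinks gave the deposited FPKM of each gene model. Program versions, and whether the strand was used in counting, are not given in the sources used here, so that overlapping genes are uncertain. The deposited FPKM are not scaled between libraries. The number of fragments behind each value was recovered from the deposited confidence limits, and was whole to within 0.05 in 100% of the values below 300 fragments. Depth limits precision by counting error only. In 7 of the 100 genes a library held fewer than 50 fragments, and the median gene had 277 in its lowest library.

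Libraries were scaled to a common 75th percentile with Python 3.11.15, numpy 2.4.6 and pandas 2.3.3, and figures were drawn with matplotlib 3.10.9. For the 12153 genes that averaged 1 FPKM or more, log2(FPKM + 1) was modeled with limma 3.58.1 in R 4.3.3, with the 8 time points as a factor, all 16 libraries and a variance trend, and p-values were adjusted by Benjamini-Hochberg at 0.05 over all genes. Fold changes on this scale understate those of low genes. Groups and replicates were taken from the sample titles.

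The genes and lists were chosen with earlier results of these data known. Named genes are the 10 of largest ratio, those in the study's domain trees, the 2 of smallest adjusted p per direction and flanking contrast, and the edge of the selection. Domain families come from 200 trees, of which 47 were complete, so families may lack members. Alternatives were other scalings, additions, filters and fits, a replicate block, and leaving out libraries. Promoter and protein sequences were not analysed here, and a deposited table of 50 genes was not used.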

Additional observations from a re-analysis of the deposited data

Results flagged for a closer look

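Among the 10 genes of largest ratio and the genes named for the contrast of dark and light flanks, 13 in all, 11 had steps across dusk (ZT 15 minus ZT 9) and across dawn (ZT 3 minus ZT 21) that differed by limma's test of the difference itself, with adjusted p-values between 1.4e-10 and 0.0233. Cre01.g064100, Cre16.g685000 and Cre10.g438600 were named for their small p-values in this same contrast, so that their passing was given in advance. Of all 30 named genes 24 passed this test, as did 79.9% of all genes tested, so nothing is read from the counts. The step across dusk exceeded that across dawn by 3.22 on the log2(FPKM + 1) scale in Cre13.g605200, 2.56 in Cre03.g197300, 2.34 in Cre01.g064100, 2.24 in Cre01.g034822, 0.92 in Cre16.g659250, 0.83 in Cre01.g029700 and 0.38 in Cre13.g595500. It was below that across dawn in 4 genes, with differences of -1.43 in Cre16.g685000, -0.92 in Cre10.g438600, -0.65 in Cre01.g005050 and -0.43 in Cre11.g480100. In Cre13.g605200, Cre03.g197300 and Cre01.g064100 both replicates were higher at ZT 15 than at ZT 9 and lower at ZT 3 than at ZT 21, and Cre16.g685000 and Cre10.g438600 had the opposite order at both changes of light. In Cre13.g595500 the difference missed the threshold with a common median (0.28, adjusted p = 0.108) and without replicate B at ZT 3 (0.31, adjusted p = 0.0941), ZT 9 (0.25, adjusted p = 0.122), ZT 15 (0.31, adjusted p = 0.0883) or ZT 21 (0.31, adjusted p = 0.091). On FPKM as deposited it was -0.13 in Cre01.g005050 (adjusted p = 0.513) and 0.03 in Cre11.g480100 (adjusted p = 0.832). Why the steps differ was not tested.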

How the results depend on the processing

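The selection depended most on scaling and on the level limit. On FPKM as deposited 36 of the 100 genes were selected again and 385 genes had a ratio above 1. With a mean of at least 1 FPKM these were 38 and 386, and with at least 10 FPKM 43 and 54, since other genes enter or fewer can. The lowest against the highest single values left 55 genes with a ratio above 1. Leaving out libraries or replicates kept 77 to 93 of the 100 genes, with 108 to 133 genes above 1. With the letters at ZT 6 exchanged the median ratio in replicate B of genes chosen on replicate A was 1.03.

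When 1 flanking library was left out, the median dark minus light difference of the 100 genes ran from 0.003 to 0.055. Over all genes it ran from -0.095 to -0.08. For dawn minus dusk the median ran from -0.156 to -0.099, against -0.053 to -0.038 over all genes. For after minus before it ran from -0.04 to 0.004, against -0.035 to -0.025. With a library of the step itself left out, the median step across dawn ran from -0.07 to -0.028, against 0.015 to 0.031 over all genes. That across dusk ran from -0.062 to 0.047, against -0.122 to -0.099. Across dawn 69 genes were called on FPKM as deposited, 4 higher (19.9% of all genes) and 65 lower (49.5%). With a replicate block, 27 of the 100 genes were higher after the changes of light (25.2% of all genes) and 32 lower (31.4%). The dark flanks were higher in 39 (34.6%) and lower in 26 (45.2%), the dawn flanks in 30 (36%) and 49 (41.8%). ZT 3 was above ZT 21 in 13 (35.7%) and below it in 31 (33.7%). ZT 15 was above ZT 9 in 36 (33.1%) and below it in 35 (44.2%). Any difference was called in 94 genes, against 94.5% of all genes in the main fit. Same-letter deviations correlated at -0.27 to 0.33 (median -0.03) over 28 pairs of time points, with 10 pairs above 0.1. Whether libraries of the same letter share a batch was not tested. Of 1394 values for 82 called contrasts of named genes under 17 alternative fits, 63 missed the threshold and 7 changed sign. With FPKM as deposited dark minus light turned to 0.016 in Cre11.g480100, 0.073 in Cre17.g708250, 0.08 in Cre01.g061950, 0.019 in Cre13.g574800, 0.016 in Cre10.g446100 and 0.033 in Cre02.g127250, and with a pseudocount of 0.1 to 0.205 in Cre13.g595350. The cause was not tested. With only 2 cultures per time point and 1 day, only 55 of the 100 genes had values at the transitions clear of all those at midday and midnight, and repetition on further days was not analysed here.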
